A study of Rattus norvegicus with 12 samples.

Results

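Leukocytes leave the blood through adhesion molecules on the vessel wall, and 7 genes of this system were described in rat kidney. They are Icam1, Icam2, Vcam1 and Madcam1, which encode immunoglobulin-type ligands for leukocyte integrins, Sele and Selp, which encode E-selectin and P-selectin, and Selplg, which encodes a selectin ligand on leukocytes. The genes were taken by symbol, and each had a single entry in both deposited tables, so that they made up 7 of 22132 entries where control and adenine were tabulated and 7 of 32623 where sham and UUO were. RNA was sequenced from whole kidney tissue of 12 male wild-type Sprague-Dawley rats, 3 per group, bought at 8 weeks of age. Rats of the adenine group were gavaged over 3 weeks with adenine, 220 mg/kg daily, and those of the control group with saline. In the UUO (unilateral ureteral obstruction) group the left ureter was ligated and tissue taken 2 weeks later, and the sham group had the operation without ligation. Each model was sampled at a single time, and which kidney of the operated rats was sequenced is not given in the sources used here. The values are FPKM, fragments scaled by transcript length and by mapped fragments, so levels of different genes can be compared within a sample, but the number of reads behind a value is unknown.

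During inflammation, cytokines make endothelium display selectins and then larger amounts of ICAM-1 and VCAM-1. Selectins let leukocytes roll along the wall by binding sugars on P-selectin glycoprotein ligand (the product of Selplg), and leukocyte integrins then bind ICAM-1 and VCAM-1 to bring the cell to arrest. In the kidney, injured tubular epithelium is also known to make ICAM-1 and VCAM-1, ICAM-2 is present on resting endothelium, P-selectin is stored in endothelium and platelets, and MAdCAM-1 is best known as a ligand of gut vessels. Transcription factors of the NF-kB family are known to act on several of these genes.

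Promoter sequences of 4 of the 7 genes were matched in RefSeq (build GRCr8), and 3 of them are shown. Icam1 and Vcam1 were among the members whose levels rose, and Madcam1 was not. The other gene matched, Sele, whose levels also rose but were too low to be tested, is not shown. Each runs 5′ to 3′ from 250 bases before the annotated start to 50 bases from it. Capitals mark the letters of the NF-kB consensus, or the letters GGAAATTCC in the case of Icam1, searched on both strands.
Icam1, chr8:27829595-27829894, + strand: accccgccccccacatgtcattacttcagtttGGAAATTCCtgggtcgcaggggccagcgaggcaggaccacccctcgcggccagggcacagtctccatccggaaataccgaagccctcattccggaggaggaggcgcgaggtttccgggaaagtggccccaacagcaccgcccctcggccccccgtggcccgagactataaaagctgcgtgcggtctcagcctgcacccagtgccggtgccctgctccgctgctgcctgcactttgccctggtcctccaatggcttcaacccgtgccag
Vcam1, chr2:206742734-206743033, - strand: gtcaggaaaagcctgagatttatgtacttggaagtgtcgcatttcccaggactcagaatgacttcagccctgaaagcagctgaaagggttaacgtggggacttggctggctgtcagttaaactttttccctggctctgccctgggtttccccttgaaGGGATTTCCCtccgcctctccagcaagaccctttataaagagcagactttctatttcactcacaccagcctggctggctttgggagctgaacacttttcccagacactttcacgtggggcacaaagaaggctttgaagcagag
Madcam1, chr7:10690273-10690572, - strand: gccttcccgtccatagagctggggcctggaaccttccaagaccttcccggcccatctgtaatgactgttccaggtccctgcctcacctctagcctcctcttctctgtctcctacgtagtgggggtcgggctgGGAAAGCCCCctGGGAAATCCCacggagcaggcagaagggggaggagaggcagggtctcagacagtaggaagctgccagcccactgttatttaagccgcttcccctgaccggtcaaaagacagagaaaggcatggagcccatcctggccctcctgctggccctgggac
The Vcam1 promoter held 1 match to the NF-kB consensus, which began at position -93 from the start. That of Madcam1 held 2 matches, at positions -118 and -106, and that of Icam1 held none. The Sele window held none either. Whether transcription of Sele begins at the annotated start was not checked, so its window cannot show that the Sele promoter lacks a match. Of 33469 promoters of this length in the table, 7.51% held a match. The letters GGAAATTCC, chosen after the Icam1 promoter had been read, began at position -218 there and occurred in 0.332% of all promoters. Just before the match in Vcam1 stand the letters gggtttcccc, which differ from the consensus and were left unmarked. The capitals thus need not show every similar stretch. The letters TATAAA lay at position -53 in Icam1 and -60 in Vcam1, and 14.2% of promoters held them on either strand. The 2 kinds of NF-kB letters did not overlap in these windows, and a match describes the letters only. In the same annotation Icam4 is the next coding gene after Icam1.

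The tables were analysed separately by limma, a linear model per gene with variances moderated across genes, on log2(FPKM + 0.1) of genes that reached 0.5 FPKM in 3 or more samples. Fold changes below are differences on this scale, with Benjamini-Hochberg adjustment across the 15029 or 15043 genes tested. A gene was called upregulated at an adjusted p under 0.05 and a log2 fold change of at least 2. Under adenine 3 of the 7 members, Icam1, Selp and Selplg, were upregulated, and after obstruction 4, the same genes and Vcam1. No member was downregulated or passed the adjusted p in the downward direction, which 19.9% (adenine) and 14.4% (UUO) of tested genes did. Of all tested genes, 10.7% were upregulated under adenine and 13.2% after obstruction, and 5.03% and 4.21% were downregulated. Icam2 and, under adenine, Vcam1 passed the adjusted p but not the fold threshold. At the adjusted p with any fold change 5 of the 7 members were higher in each model, as were 39.6% and 56.1% of all tested genes. Of the 7 members, 6 had every treated sample above every reference sample in both models. Of all entries, 35.7% (adenine) and 31.1% (UUO) did, and of tested genes 45.0% and 60.0%. Sele and Madcam1 were too low to be tested in either table. Selp was tested only because of its levels in the adenine and UUO samples, so it had to differ between groups to be included. Over the tested genes, the median log2 fold change came to 0.30 (adenine) and 0.62 (UUO), and median-of-ratios scaling, which equalizes the typical gene across samples, brought it to 0.001 and 0.023.

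**Figure D1:**
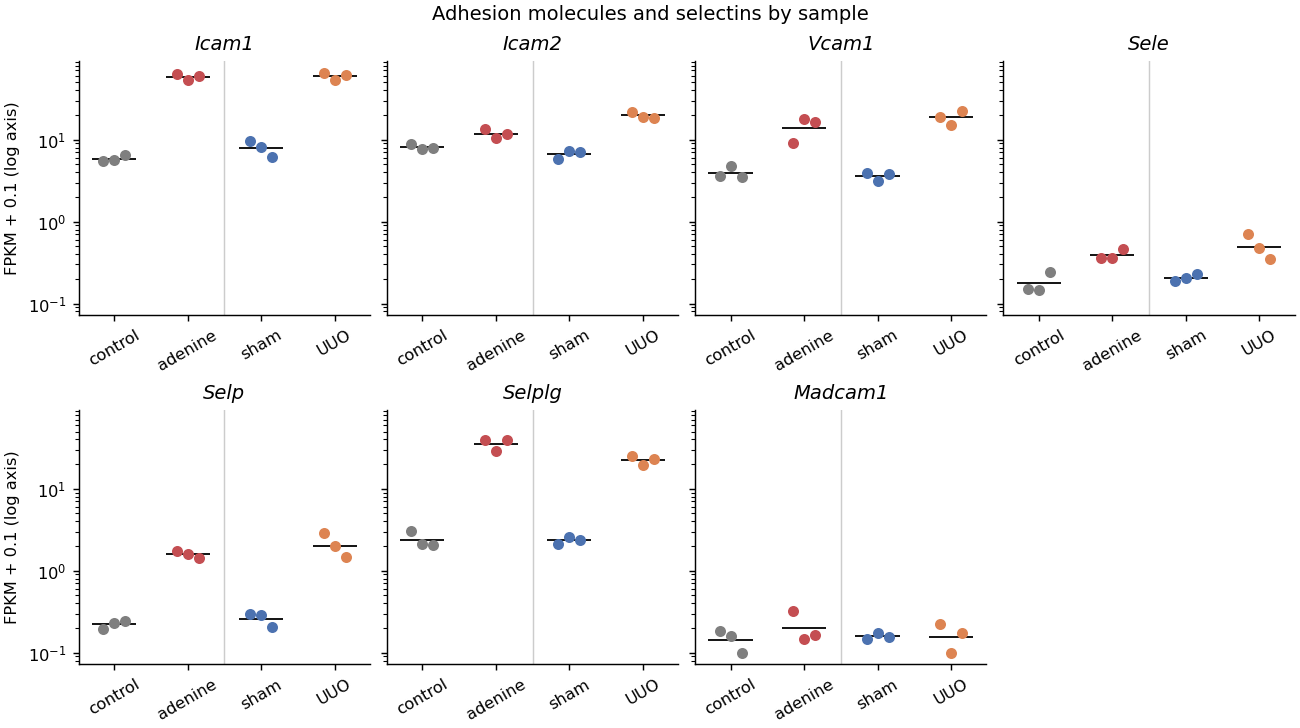
FPKM + 0.1 (log axis) of each member in each sample, with control and adenine samples of one table left of the grey line and sham and UUO samples of the other table right of it. Points are rats (3 per group) and lines are geometric means of FPKM + 0.1. In each table the points of Icam1, Icam2, Vcam1, Sele, Selp and Selplg do not overlap between groups, while Madcam1 lies near the lower end of the axis in all 4 groups.

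Icam1 encodes ICAM-1, the ligand of the leukocyte integrins LFA-1 and Mac-1. Its FPKM was 5.34, 5.61 and 6.38 among control rats, against 64.0, 52.7 and 60.3 among adenine rats. In the other table it was 9.66, 7.97 and 5.96 among sham rats, against 65.8, 54.1 and 61.5 among UUO rats. Groups did not overlap in either model, and the treated groups reached a similar range. Mean FPKM was 10.2 times that of the control group under adenine and 7.68 times that of the sham group after obstruction. The log2 fold change was 3.33 (SE 0.12, limma adjusted p = 2.28e-05) under adenine and 2.95 (SE 0.18, limma adjusted p = 3.1e-05) after obstruction. A lower log2 fold change was found for 96.4% and 94.4% of all tested genes. These are bulk samples, in which more cells of a type cannot be told apart from more RNA per cell.

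Vcam1 encodes VCAM-1, the ligand of the integrin of the Itga4 and Itgb1 chains. FPKM was 3.46, 4.71 and 3.39 among control rats, against 8.90, 17.5 and 16.4 among adenine rats. It was 3.82, 3.02 and 3.69 among sham rats, against 18.7, 15.2 and 22.4 among UUO rats. The groups were apart in both models, and adenine replicate 1 was the lowest of the adenine samples. That sample also had the highest summed FPKM of the 10 leukocyte markers, 1288 against 848.4 and 1083 in the other adenine samples, and whether this bears on its Vcam1 level was not tested. The log2 fold change was 2.38 (SE 0.18, limma adjusted p = 5.69e-05) after obstruction. Under adenine it was 1.82 (SE 0.29, limma adjusted p = 0.00182), short of the fold-change threshold, and it was 2.13 without adenine replicate 1 (limma adjusted p = 0.000665), which passed it. With median-of-ratios scaling the UUO value was 1.79 and no longer reached the threshold (limma adjusted p = 0.000129), and with FPKM rescaled to equal sums the adenine value was 2.09 and did.

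Icam2 encodes ICAM-2, another ligand of LFA-1. FPKM was 8.72, 7.69 and 7.80 among control rats, against 13.6, 10.3 and 11.5 among adenine rats. It was 5.73, 7.10 and 6.99 among sham rats, against 21.7, 19.0 and 18.5 among UUO rats. All adenine and UUO samples lay above their reference samples, the former by a small margin. The log2 fold change was 0.53 (SE 0.14, limma adjusted p = 0.0146) under adenine and 1.57 (SE 0.13, limma adjusted p = 7.91e-05) after obstruction. With median-of-ratios scaling these values were 0.24 (limma adjusted p = 0.19) and 0.97 (limma adjusted p = 0.00098), so the call at the adjusted p alone was lost under adenine. The RefSeq annotation has a gene overlapping Icam2, Prr29, whose FPKM was 0.954 to 1.65 in control, 1.60 to 3.52 in adenine, 0.701 to 1.47 in sham and 1.43 to 2.61 in UUO samples. Whether the counting used strand is not given in the sources used here, so reads of the shared stretch cannot be assigned.

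Madcam1 stayed near the lower end of both tables. FPKM was 0.0858, 0.0602 and 0 among control rats, against 0.226, 0.0468 and 0.0662 among adenine rats. It was 0.0477, 0.0730 and 0.0545 among sham rats, against 0.121, 0.0001 and 0.0723 among UUO rats, where 0.0001 is the lowest value that table holds. Groups overlapped in both models, with exact two-sided permutation p values of 0.5 and 0.9 on log2(FPKM + 0.1). Expression of Madcam1 was thus not separable between groups at these levels.

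Selp encodes P-selectin, and Selp RNA was low in the reference kidneys. FPKM was 0.0959, 0.128 and 0.146 among control rats, against 1.64, 1.51 and 1.32 among adenine rats. It was 0.198, 0.185 and 0.107 among sham rats, against 2.80, 1.88 and 1.35 among UUO rats. Every treated sample was several times higher than any reference sample, and the UUO samples spread more than the adenine samples. Mean FPKM was 12.1 times the control mean and 12.3 times the sham mean. The log2 fold change was 2.83 (SE 0.26, limma adjusted p = 0.000207) under adenine and 2.96 (SE 0.35, limma adjusted p = 0.000348) after obstruction. For so low a gene the value depends on the added constant, and with a pseudocount of 1 it was 1.15 and 1.34, below the fold-change threshold with adjusted p of 0.000222 and 0.000694.

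Sele encodes E-selectin, which activated endothelium makes anew. FPKM was 0.0523, 0.0463 and 0.144 among control rats, against 0.255, 0.256 and 0.362 among adenine rats. It was 0.0864, 0.104 and 0.129 among sham rats, against 0.606, 0.381 and 0.253 among UUO rats. Both treated groups lay above their reference groups, with an exact two-sided permutation p of 0.1 in each, the smallest that 3 samples against 3 can give. Mean FPKM was 3.60 and 3.88 times the reference mean. Without the filter on low values the log2 fold change was 1.14 (limma adjusted p = 0.0209) and 1.26 (limma adjusted p = 0.018), both under 2.

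Selplg, whose product sits on leukocytes and is bound by the selectins, had the highest log2 fold change of the tested members at this pseudocount. After obstruction Selp was above it with a pseudocount of 0.01 (3.52 against 3.30) and by the ratio of mean FPKM (12.3 against 9.92). FPKM was 2.94, 2.03 and 1.95 among control rats, against 39.0, 28.6 and 39.1 among adenine rats. It was 2.02, 2.46 and 2.26 among sham rats, against 24.9, 19.2 and 22.9 among UUO rats. No treated sample came near a reference sample, and the adenine samples were higher than the UUO samples, although levels of separately normalized tables are set side by side here. The log2 fold change was 3.90 (SE 0.21, limma adjusted p = 3.68e-05) under adenine, above 97.8% of tested genes. After obstruction it was 3.25 (SE 0.15, limma adjusted p = 1.32e-05), above 96% of them.

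**Figure D2:**
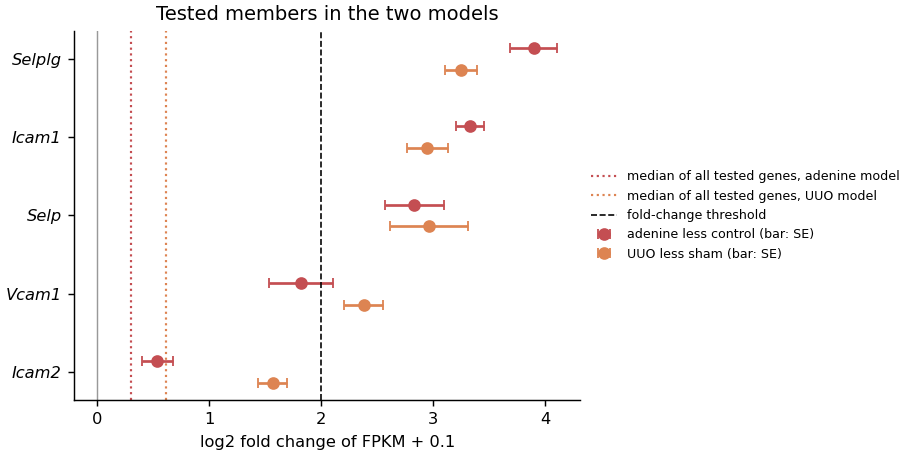
Log2 fold changes of the 5 tested members on the log2(FPKM + 0.1) scale, adenine less control and UUO less sham, with bars of 1 SE from limma. Selplg, Icam1 and Selp lie right of the dashed threshold in both models, Vcam1 on either side of it at 1.82 and 2.38, and Icam2 left of it at 0.53 and 1.57, against medians of all tested genes (dotted) of 0.30 and 0.62.

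The order of the levels differed between groups. In the control samples Icam2 was highest, followed by Icam1, Vcam1 and Selplg without overlap of their ranges, and then by Selp, Sele and Madcam1, whose neighbouring ranges overlapped. In the sham samples Icam1 came first but overlapped Icam2. In the adenine samples Icam1 was highest and Selplg next, both clear of the following genes, and Vcam1 and Icam2 overlapped. In the UUO samples Icam1 was again clear of the rest, while Selplg overlapped Icam2, and Icam2 overlapped Vcam1. Within each sample, the ratio of Icam1 to Icam2 does not depend on how samples are scaled. It was 0.612 to 0.817 in control and 4.72 to 5.25 in adenine samples, and 0.853 to 1.69 in sham and 2.85 to 3.32 in UUO samples. The ratio of Icam1 to Vcam1 was 1.19 to 1.88 in control, 3.00 to 7.18 in adenine, 1.62 to 2.64 in sham and 2.74 to 3.55 in UUO samples. Selp over Sele was 1.02 to 2.76, 3.64 to 6.43, 0.830 to 2.29 and 4.62 to 5.33 in the same order of groups. For each of these ratios the groups did not overlap (exact two-sided permutation p = 0.1 on the log2 scale in both models). The ratio of Selplg to Selp overlapped between groups in both models, with exact permutation p values of 0.5 and 0.6. These 5 ratios, among them Icam1 to Selplg, which overlapped too, were chosen after the levels were seen.

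The log2 fold changes of the models, which share no samples, were compared by their difference over 13486 genes tested in both tables. Of the 5 tested members only Icam2 passed at an adjusted p under 0.05, with a log2 fold change higher by 1.03 after obstruction (SE 0.19, limma-based adjusted p = 0.00223). A higher log2 fold change after obstruction at this threshold was found for 21.7% of genes, a lower one for 5.25%, and the median difference over all genes was 0.28. With median-of-ratios scaling the difference of Icam2 was 0.73 (adjusted p = 0.0221 from the limma fits). Summed FPKM of endothelial markers was also higher in UUO than in sham samples (301 to 336.1 against 161.5 to 189) and lower in adenine than in control samples (106.7 to 132.4 against 163.5 to 203.3), and the part of this in the Icam2 difference was not tested. Most of the lower sum in adenine samples came from 2 genes, Emcn with a mean FPKM of 51.0 in control and 14.8 in adenine samples and Plvap with 42.4 and 15.4, while 6 of 11 tested markers had a log2 fold change above 0 there. The difference was -0.65 for Selplg (95% interval -1.19 to -0.10, adjusted p = 0.0722 from the limma fits) and 0.56 for Vcam1 (-0.17 to 1.28, adjusted p = 0.231). It was -0.38 for Icam1 (-0.85 to 0.09, adjusted p = 0.212, limma fits) and 0.13 for Selp (-0.81 to 1.07, adjusted p = 0.853), so differences of up to about 1 on the log2 scale remain within the interval for Selp. For Selplg the difference was -0.95 with median-of-ratios scaling and its adjusted p 0.0191 by the same fits, which is past the threshold.

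Leukocytes bind these ligands through integrin chains among others, and 8 of 9 listed integrin genes were tested, each listed once, while Itgad was not listed under its symbol. Under adenine 6 were upregulated, Itgam, Itgb2, Itgax, Itgal, Itga4 and Itgb7, and after obstruction the same 6, where 10.7% and 13.2% of all tested genes were. Like Selp, Itgam and Itga4 (both models) and Itgb7 (adenine) were below 0.5 FPKM in every reference sample and were tested only through their treated samples. Itgb7 after obstruction, with sham values of 0.0809 to 0.666, also needed its UUO samples to pass the filter. The count of upregulated integrin genes is therefore a description. Itgal, the LFA-1 chain that binds ICAM-1 and ICAM-2, had a mean FPKM of 1.57 ± 0.424 (SD, n = 3) in controls and 12.4 ± 0.649 in the adenine group, against 2.10 ± 0.151 (sham) and 18.5 ± 1.18 (UUO). Itga4, a chain of the VCAM-1 and MAdCAM-1 receptors, rose from 0.171 ± 0.0836 to 1.71 ± 0.524 (SD, n = 3) under adenine and from 0.124 ± 0.0839 to 1.52 ± 0.486 after obstruction. Itgb7, which pairs with Itga4 to bind MAdCAM-1, rose by 2.01 (SE 0.24, limma adjusted p = 0.000572) and 3.74 (SE 0.52, limma adjusted p = 0.000716) on the log2 scale, while Madcam1 itself stayed at the levels above.

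The Mac-1 chain gene Itgam, whose product binds ICAM-1 together with that of Itgb2, went from FPKM of 0.200 ± 0.0935 to 46.5 ± 13.9 (SD, n = 3) under adenine and from 0.247 ± 0.0391 to 4.45 ± 0.867 after obstruction. The UUO less adenine difference of its log2 fold changes was -3.58 (adjusted p = 0.000119, limma fits). Itgb2, the shared chain of LFA-1 and Mac-1, had log2 fold changes of 5.88 and 2.08, a UUO less adenine difference of -3.81 (adjusted p = 7.39e-05, limma fits). Itgb1, common to many cells, and Itgae passed the adjusted p but not the fold threshold after obstruction, with 1.65 and 1.37. Under adenine Itgb1 was at 1.27 and Itgae at 0.29 (limma adjusted p = 0.324). Calls near the threshold depended on single libraries. Itgb7 under adenine was at 1.97, just under 2.00 and at 1.87 without control replicate 1, control replicate 3 or adenine replicate 3, and Itgb2 after obstruction at 1.99 and 1.96 without sham replicate 3 or UUO replicate 1. With median-of-ratios scaling Itgb7 under adenine was at 1.75, and Itgb2 and Itgax after obstruction lost their calls as well, Itgb2 at 1.48.

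**Figure D3:**
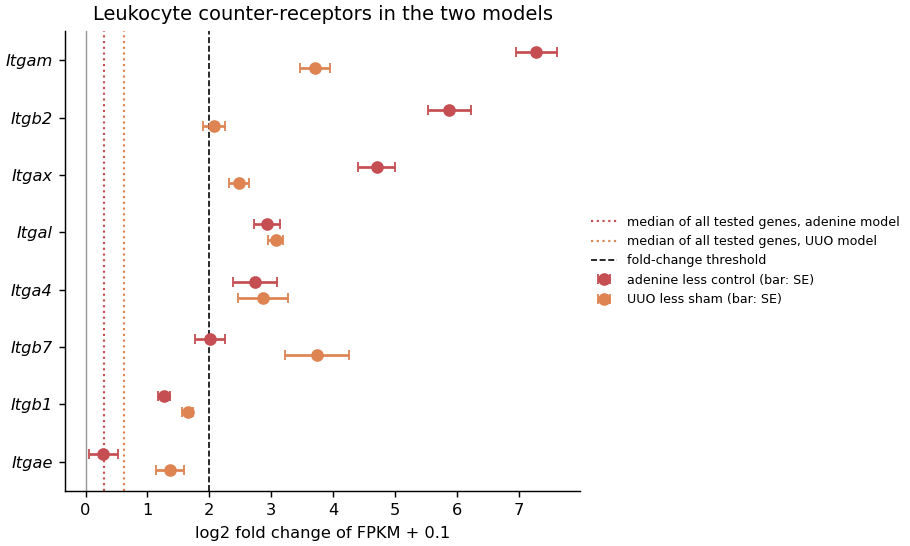
Log2 fold changes of 8 leukocyte counter-receptor genes on the log2(FPKM + 0.1) scale in both models, with bars of 1 SE from limma. Itgam and Itgb2 stand farther right under adenine (7.28 and 5.88) than after obstruction (3.70 and 2.08), Itgb7 farther right after obstruction, and Itgae near the median of all genes under adenine.

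Among other surface molecules of leukocyte passage, 3 of 15 tested under adenine were upregulated, Cd44, Spn and Alcam, where 10.7% of all tested genes were. None of the 15 was downregulated, where 5.03% of all tested genes were, too small a share for this count to tell much. The median log2 fold change of the 15 was 0.57. After obstruction 6 of 14 were upregulated, Cd44, Cdh5, Mcam, Cd34, Aoc3 and Spn, with a median of 1.74, where 13.2% of all tested genes were upregulated. Of these 6 only Cd44 kept its call with median-of-ratios scaling, and likewise with quantile normalization. Cd44, a hyaluronan receptor, had the highest value in both, 4.82 (SE 0.26, limma adjusted p = 3.79e-05) and 3.78 (SE 0.17, limma adjusted p = 1.32e-05). Spn, leukosialin, was at 3.44 and 2.10. Cdh5, which joins endothelial cells, was at 0.84 under adenine and 2.48 after obstruction. The lowest values were those of Podxl, the podocyte sialomucin, at -1.46 and -0.99, and of Cd99l2 at -0.89 and -0.54. After obstruction Spn was at 1.94, 1.97 and 1.79 without sham replicate 2, sham replicate 3 or UUO replicate 3, and Aoc3, an adhesion protein of vessel walls, was at 1.61 and 1.52 without sham replicate 1 or UUO replicate 1. Pecam1 was not used here, and Icam4 and Glycam1 were too low to be tested in either table, as was Icam5 in the UUO table.

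Enzymes that build or sulfate selectin ligands moved in both directions. St3gal4, a sialyltransferase, rose by 2.96 (SE 0.12, limma adjusted p = 2.49e-05) under adenine and 2.78 (SE 0.17, limma adjusted p = 2.9e-05) after obstruction. Under adenine 3 of 9 tested enzymes were upregulated, with Fut7 and B4galt1 beside it, and Chst2, a sulfotransferase, was downregulated at -2.49 (SE 0.30, limma adjusted p = 0.000578). Fut7 was below 0.5 FPKM in every control sample and was tested only through the adenine samples. Its value was 0.96 with a pseudocount of 1, and with an FPKM minimum of 1 it was not tested. After obstruction 4 of 8 tested enzymes were upregulated, Tpst1, Fut4 and B4galt1 among them, and Chst2 was at -1.50. The share of all tested genes upregulated was 10.7% under adenine and 13.2% after obstruction, and the share downregulated was 5.03% and 4.21%. Tpst2, which sulfates tyrosines, was at -0.29 under adenine, and Gcnt1 was at 0.49 after obstruction, both without passing the test. Median values of the list were 1.56 and 1.52.

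Of 10 NF-kB genes, each was tested in both models and had an adjusted p under 0.05 with a positive log2 fold change, as did 39.6% and 56.1% of all tested genes. Past the fold threshold were 4 under adenine and 5 after obstruction, where 10.7% and 13.2% of all tested genes were upregulated. The medians of the NF-kB list were 1.83 and 2.05. Birc3, an inhibitor of apoptosis, and Tnfaip3, the feedback inhibitor A20, had the highest values in both, 4.47 and 4.12 under adenine and 4.72 and 3.05 after obstruction. The lowest control value of Tnfaip3 was 0.483 FPKM, so it needed adenine samples to pass the filter. Rela and Nfkbia were lowest under adenine at 0.84 and 0.92, and Rel after obstruction at 1.04, followed by Ikbkb. With median-of-ratios scaling the calls over the lists of surface molecules, enzymes and NF-kB genes went from 15 to 7 after obstruction, namely Cd44, St3gal4, Tpst1, Nfkbie, Tnfaip3 and Birc3, called before as well, and Chst2, downregulated at -2.09 (limma adjusted p = 4.74e-05). Under adenine only Relb lost its call, at 1.83.

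Marker genes of the cells that can carry the members were set beside the groups. For the calls in this paragraph, 10.7% of all tested genes were upregulated under adenine and 13.2% after obstruction. Downregulated were 5.03% and 4.21% of them. All 10 leukocyte markers were upregulated in both models, with medians of 3.40 and 2.81, and their summed FPKM was 76.5 to 123.4 in control, 848.4 to 1288 in adenine, 104.3 to 123.1 in sham and 646.7 to 846.9 in UUO samples. The 10 myeloid markers were all upregulated as well, summing to 165.4 to 234.3, 6506 to 13210, 191.5 to 319.5 and 1440 to 2149 in the same groups. Itgam, also counted among the counter-receptors, and Csf3r (both models) and S100a8 (adenine) were below 0.5 FPKM in every reference sample. These were tested only through their treated samples. After obstruction S100a8 and S100a9, with sham values of 0.130 to 0.501 and 0.0001 to 0.915, also needed their UUO samples to pass the filter. Most of each sum was Lyz2, whose mean FPKM was 175.4 in control, 9113 in adenine, 241.4 in sham and 1619 in UUO samples. Of lymphocyte markers 3 of 7 tested were upregulated under adenine and 8 of 8 after obstruction. In the latter model Ms4a1 and Cd79b were below 0.5 FPKM in every sham sample and were tested only through the UUO samples. The list summed to 10.4 to 16.0, 118 to 126, 14.2 to 21.0 and 123 to 268 in the same order of groups. Most of the adenine sum was Cd4, with mean FPKM of 4.93 in control, 94.1 in adenine, 10.8 in sham and 95.3 in UUO samples. Which cells carried the Cd4 RNA was not tested. Cd3d, Cd2, Cd8a and Cd79a were not called under adenine, at 1.66, 1.58, 1.49 and 1.54. None of the endothelial markers was called in either direction, of 11 tested under adenine and 10 after obstruction. With so few markers and the shares above, this count is a description. At the adjusted p alone 2 were higher and 4 lower under adenine, and 7 were higher and 0 lower after obstruction. Among all tested genes 39.6% were higher and 19.9% lower under adenine, and 56.1% and 14.4% after obstruction. Medians of the endothelial markers were 0.08 and 0.86, against 0.30 and 0.62 over all tested genes. Robo4 was below 0.5 FPKM in every control sample and was tested under adenine only through the adenine samples. Sums of the endothelial markers are given above beside Icam2. Emcn fell by 1.79 (SE 0.18, limma adjusted p = 0.000284) on the log2 scale under adenine, short of the fold threshold, and Flt1 was highest at 1.08. The platelet markers summed to 7.56 to 11.6 FPKM in control, 52.1 to 54.4 in adenine, 7.68 to 10.9 in sham and 13.0 to 22.9 in UUO samples, and their part in the Selp result was not tested. The higher sum was nearly all Pf4, which macrophages can also express and whose mean FPKM was 2.70 in control and 50.1 in adenine, 3.04 in sham and 16.1 in UUO samples. Of 3 tested, Pf4 was upregulated in both models and Itga2b was at -1.75 and -2.12, the latter a downregulated call, while Treml1 did not pass. Gp1ba, Gp1bb, Gp9 and Gp6 were too low to be tested in either table. The labelled tissue was checked by kidney genes. Proximal tubule markers summed to 2145 to 3253 FPKM over control and sham samples and to 159.5 to 569.5 over adenine and UUO samples, with 5 of 8 downregulated in each model, and no listed kidney marker was untested.

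Member levels were then set beside these markers, as log2(FPKM + 0.1) of a member less the mean of a marker list in the same sample, a quantity that scaling of a sample hardly moves. Relative to leukocyte markers, Icam1 overlapped between groups in both models, with treated less reference differences of -0.15 and 0.12 (exact two-sided permutation p = 0.7 in each). Selplg was higher relative to them by 0.42 under adenine and 0.42 after obstruction, without overlap. These values were 0.18 and 0.19 with a pseudocount of 1, and under adenine 0.20 with the median over the marker list and 0.26 without control replicate 2. For Vcam1 the differences were -1.66 and -0.45, lower in treated samples and also without overlap. Relative to endothelial markers, Icam1 was higher by 3.49 and 2.08, Vcam1 by 1.98 and 1.51, Selp by 2.99 and 2.10, and Icam2 by 0.69 and 0.70, and in none of these did the groups overlap. Apart from Icam1 against leukocyte markers, each of these comparisons had an exact two-sided permutation p of 0.1, the smallest possible with 3 samples per group. With a pseudocount of 1 the values of Selp were 1.35 and 0.54. Taking the median over the endothelial list in place of the mean gave 0.31 and 0.60 for Icam2, and the difference of its relative values between the models was not tested. The part of cell numbers in these results was not tested.

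**Figure D4:**
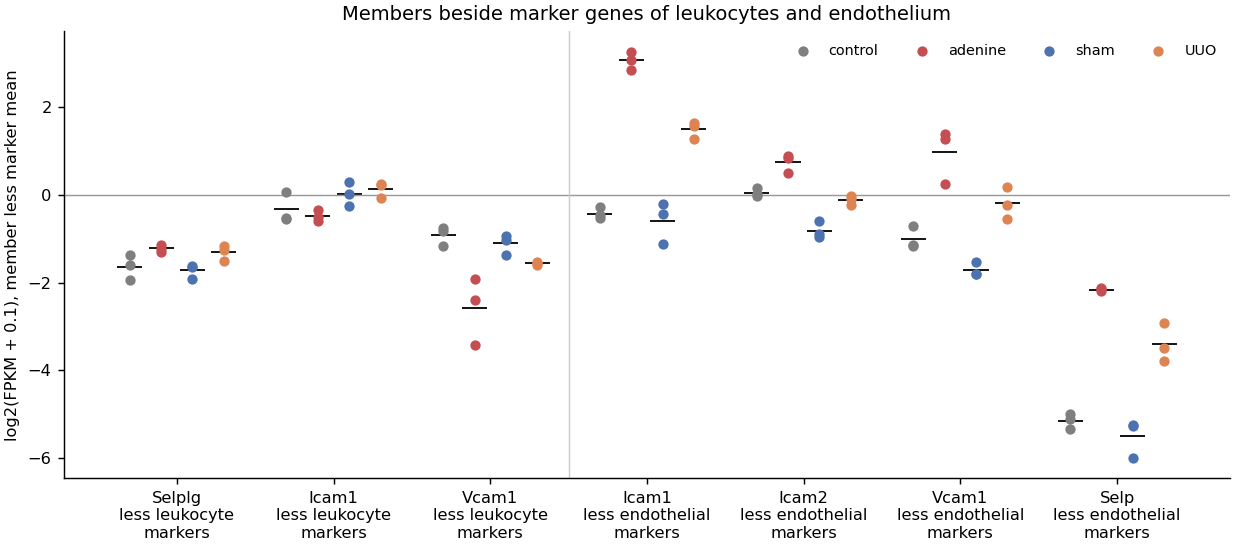
Log2(FPKM + 0.1) of a member less the mean of leukocyte markers (left of the grey line) or endothelial markers (right) in the same sample, for the 4 groups. Points are rats (3 per group) and lines are means. Icam1 keeps overlapping ranges between groups against leukocyte markers but lies higher by 3.49 (adenine) and 2.08 (UUO) against endothelial markers, and Vcam1 lies lower against the former and higher against the latter.

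Genes with the pattern most like each tested member were sought over 13486 genes, by the root mean square distance over 12 samples of log2(FPKM + 0.1) less the control or sham mean. Nearest to Icam1 were Tlr2, Ly86 and Was, at distances of 0.16, 0.17 and 0.17, where the median gene was at 1.96. Was is in the list of leukocyte markers. Nearest to Selplg were Tnfrsf1b, Nckap1l and Fxyd5, at 0.12, 0.21 and 0.21 against a median of 2.27. Those of Selp were Ripk3, LOC690617 and Pycard, at 0.21 to 0.23 against 1.79. Vcam1 was closest to Srsf12, Prnp and AABR07019403, at 0.20 to 0.21 against 1.28, and Icam2 to Stk40, Sh3gl1 and Kctd18, at 0.11 to 0.13 against 0.77. These distances are descriptions over 6 samples in 2 groups per table.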

How the data were processed

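Kidney RNA of 12 rats was measured by poly(A) RNA-seq with a strand-marking kit. The authors deposited FPKM per gene in 2 tables; per the labels' processing notes they used cutadapt 1.9, HISAT2 2.0.4 and StringTie 1.3.4d, and edgeR and DESeq2 are also named there. Genome build and annotation are not given in the sources used here. Samples were grouped by title, columns were matched to titles, and 0 columns were left unused. No read counts were used and depth is unknown: ratios between samples of values under 0.2 FPKM, in steps of 0.2%, shared a common value in at most 3.01% of genes, too few to recover it, so precision rests on the spread between 3 rats. No pair of replicates had equal values in entries over 1 FPKM.

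Each table was fitted with limma 3.58.1 (lmFit, eBayes with trend) in R 4.3.3 on log2(FPKM + 0.1), with the filter and thresholds given above. Other steps used Python 3.11.15, numpy 2.4.6, pandas 2.3.3 and scipy 1.17.1. The fitting code was tested on simulated data.

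The members, the gene lists and the tests were chosen with earlier results of these data known. Named genes are the 7 members, the counter-receptors, in each other list the 2 tested genes with the highest and the 2 with the lowest log2 fold change in a table, called genes where a count is given by name, and the 3 genes nearest to each member. Lists used symbols with a single entry, and 1 counter-receptor gene is not reported here. The alternatives tried were a pseudocount of 1 or 0.01, an FPKM minimum of 1 or none, 3 scalings, eBayes without trend, a replicate block, no fold threshold, the ratio of means, the median over a marker list, and leaving out each sample (then with at least 2 samples at the minimum FPKM).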

Additional observations from a re-analysis of the deposited data

Results flagged for a closer look

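The log2 fold change of Icam2 was higher in the UUO model than in the adenine model by 1.03 (SE 0.19, adjusted p = 0.00223 from the limma fits), with all 3 UUO samples above all sham samples and all 3 adenine samples above all control samples. A test of the difference itself drew attention to it. Without each sample in turn its adjusted p from the limma fits stayed between 0.00259 and 0.00741, and it was 0.00762 with a replicate block. The difference was smaller with median-of-ratios scaling (0.73, adjusted p = 0.0221, limma fits) and quantile normalization (0.74, adjusted p = 0.0187, limma fits). Of all genes compared, 21.7% had a higher log2 fold change after obstruction at this threshold, and the median difference was 0.28.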

How the results depend on the processing

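The number of members upregulated (3 and 4) was 5 under adenine with no fold-change threshold and 3 to 4 there and 4 to 4 after obstruction with each sample left out. Which members were called changed through Vcam1 and Selp at the settings given with their levels, and through Icam2 and Vcam1 where no fold-change threshold was used, and Vcam1 after obstruction was also lost with quantile normalization, at 1.74. Counter-receptors called fell from 6 to 4 in both models with a pseudocount of 1, and numbered 5 to 6 in each with each sample left out. The other pathway genes called, 11 and 15 in all, with alternatives chosen after seeing the data, were 26 and 29 with no fold-change threshold. After obstruction they were 7 with median-of-ratios scaling and 6 with quantile normalization, and they numbered 11 to 12 and 14 to 17 with samples left out. The number of members that differed between the models, 1, was 2 with quantile normalization, median-of-ratios scaling or a pseudocount of 1, through Selplg each time, and 1 to 2 with samples left out, through Selplg without control replicate 1 (adjusted p = 0.0203 by limma) or adenine replicate 2 (0.0427) and Icam1 without sham replicate 3 (0.0425).

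With a pseudocount of 1, Selplg relative to leukocyte markers was 0.18 under adenine and 0.19 after obstruction, and Selp relative to endothelial markers 1.35 and 0.54. With 0.01 the latter was 3.65 and 2.65. The median over the list gave 0.20 for Selplg, 3.10 for Icam1, 0.31 for Icam2 and 2.61 for Selp under adenine, the last 3 against endothelial markers. With each sample left out, values relative to leukocyte markers ranged, under adenine and after obstruction, over Selplg 0.26 to 0.54 and 0.32 to 0.52, Icam1 -0.26 to 0.05 and -0.02 to 0.25, Vcam1 -1.99 to -1.24 and -0.58 to -0.37. Those relative to endothelial markers ranged over Icam1 3.38 to 3.60 and 1.82 to 2.27, Icam2 0.62 to 0.81 and 0.63 to 0.81, Vcam1 1.76 to 2.34 and 1.32 to 1.69, Selp 2.90 to 3.07 and 1.85 to 2.28.

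Correlations of deviations between same-numbered samples were -0.08, -0.12 and -0.05 under adenine and 0.05, 0.11 and 0.06 after obstruction. With 3 rats per group, these values cannot decide whether the replicate numbers pair the rats. After obstruction every sham sample correlated best with its own number, a hint from the data only, and under adenine every control sample correlated least with its own. A replicate block gave 3 and 4 members, 6 and 6 counter-receptors, 11 and 14 other pathway genes and 1 member that differed between the models, so that only the call of Aoc3 after obstruction was lost (adjusted p = 0.06 by limma). The cause of these shifts was not tested, except that a larger pseudocount shrinks low genes by construction.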
